A study of Mus musculus with 20 samples.

Results

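The cytosolic ribosomal protein genes encode the proteins of the small (Rps) and large (Rpl) ribosomal subunits. They were taken from the deposited gene table by symbol: Rpl or Rps followed by a number and a short suffix, with Rpsa, Rplp0, Rplp1 and Rplp2 added, and with a mean of 1 FPKM or more over the 8 RNA-seq libraries. FPKM is the number of fragments scaled by transcript length and by all mapped fragments of the library. Of 86 symbols that matched, 85 passed, out of 53440 genes in the table, and all 85 were among the 15428 genes tested. Of these members, 36 belong to the small and 49 to the large subunit. They include 6 paralogs of standard ribosomal proteins, which are Rpl10l, Rpl39l, Rps4l, Rpl22l1, Rps27l and Rpl7l1. RefSeq types 4 of the 85 as pseudogenes, namely Rps4l, Rps12l1, Rps3a2 and Rps3a3. The symbol left out for its level was Rpl3l, with 0.637 and 0.234 FPKM in KO EB, 0.144 and 0.133 FPKM in WT EB, 0.863 and 0.754 FPKM in KO ES cells and 1.00 and 0.572 FPKM in WT ES cells. The lowest genes kept were Rps12l1, with a mean of 35.7 FPKM, and Rpl39l, with a mean of 38.1 FPKM.

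The study asked what loss of the p150 subunit of CAF-1, the histone chaperone that places new H3 and H4 histones on replicated DNA, does to mouse embryonic stem (ES) cells and to their differentiation. RNA was sequenced from embryoid bodies (EB), the aggregates that ES cells form when they differentiate, and from the ES cells themselves, in 4 groups of 2 libraries. The groups were CAF-1 p150 knockout EB (KO EB), wild-type EB (WT EB), knockout ES cells (KO ES) and wild-type ES cells (WT ES). The cells were the TL1 ES line, with p150 targeted by CRISPR/Cas9. ES cells were kept in serum with leukaemia inhibitory factor (LIF), and EB were grown in the same medium without LIF. The labels used here give neither the number of knockout clones nor the age of the EB taken for RNA, and do not say that replicate libraries came from separate cultures. The p-values thus take their error from how these libraries differ, and part of that may come from handling. Histone H3 lysine 4 trimethylation (H3K4me3) and H3 lysine 27 trimethylation (H3K27me3) were profiled by chromatin immunoprecipitation (ChIP) in 1 library per group, and 4 input libraries were not analysed here.

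Chaf1a, the gene for p150 (ENSMUSG00000002835.8, mm10 chr17:56040416-56068026), had 31.6 and 35.003 FPKM in KO EB, against 31.7 and 32.1 FPKM in WT EB. It had 48.1 and 38.0 FPKM in KO ES cells, against 49.5 and 43.0 FPKM in WT ES cells. A gene-level FPKM does not show a small Cas9 lesion, so the genotypes rest on the labels. Total FPKM per library ran between 641813 and 782026. Read totals were not at hand. The FPKM worth of 1 read, read off the low values, came out between 0.995 and 1.185 times that of WT ES library 1. Only ratios in a band around equality were searched. The commonest ratio had 510 genes, against 106 for the next, in KO ES library 1, but 59 against 57 in KO EB library 1. These values therefore cannot show whether relative depth was close.

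Ribosomal protein genes are among the most strongly transcribed genes of any growing cell, and their products are made in near equal numbers because each ribosome holds 1 copy of most of them. Their mRNAs begin with a run of pyrimidines, the terminal oligopyrimidine (TOP) motif, through which mTORC1 and the RNA-binding protein Larp1 set their translation and stability. In these libraries 66 of the 85 members averaged over 1000 FPKM and 4 averaged under 200 FPKM. Among the 76 members that are neither paralogs nor typed as pseudogenes, mean levels ran between 348 FPKM for Rpl29 and 7850 FPKM for Rps27, with a median of 1647 FPKM. The members lie on 19 chromosomes.

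The DNA around the RefSeq start sites of the members was searched for pyrimidine runs like that of the TOP motif. Bases around the start are printed for Rps6, the S6 kinase substrate, and for 4 pairs of a paralog and its standard partner, whose levels are compared later. Each window runs 5′ to 3′ on the gene's strand of GRCm38.p6, from 35 bases before to 15 bases after the RefSeq start. Capitals mark an unbroken run of 6 or more C or T that reaches within 10 bases of the start.
Rps6 (chr4:86857353-86857402, minus strand): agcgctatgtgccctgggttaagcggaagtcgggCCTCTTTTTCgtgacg
Rps27l (chr9:66946051-66946100, plus strand): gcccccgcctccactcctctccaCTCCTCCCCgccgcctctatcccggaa
Rps27 (chr3:90213634-90213683, minus strand): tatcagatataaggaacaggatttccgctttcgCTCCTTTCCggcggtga
Rpl22l1 (chr3:28805473-28805522, plus strand): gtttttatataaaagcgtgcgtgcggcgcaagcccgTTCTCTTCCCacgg
Rpl22 (chr4:152325691-152325740, plus strand): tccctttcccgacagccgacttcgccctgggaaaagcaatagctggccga
Rpl39l (chr16:10170193-10170242, plus strand): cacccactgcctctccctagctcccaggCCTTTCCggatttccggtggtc
Rpl39 (chrX:37085208-37085257, minus strand): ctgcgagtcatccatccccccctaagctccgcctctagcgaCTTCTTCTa
Rpl10l (chr12:66284387-66284436, minus strand): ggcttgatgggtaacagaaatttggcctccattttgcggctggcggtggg
Rpl10 (chrX:74270781-74270830, plus strand): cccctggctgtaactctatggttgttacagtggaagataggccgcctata

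In this set Rpl10l, Rpl10 and Rpl22 have no such run, and the other 6 windows do. Some runs, such as those of Rps27l and Rpl39l, end before the annotated start and so lie outside the annotated transcript. RefSeq windows were at hand for 61 of the 85 members, and 34 of these held a run that reached within 10 bases of the start. That is 55.7% of the members, against 29.0% of all 27025 RefSeq windows of the same length. Runs of A or G of the same length, searched on the same strand as a control for base composition, were near the start in 8.2% of the members and 32.1% of all windows. Over the whole 300-base promoter window, CCGGAAG, a form of the site read by ETS-family factors such as GABPA, was present on either strand in 41.0% of the members, 9.18% of all windows and 17.9% of windows of tested genes. AAGATGGC, a form of the YY1 site, was in 8.20% of the members, 2.88% of all windows and 4.72% of windows of tested genes. The TATA box form TATAAA was in 9.84% of the members, 14.2% of all windows and 6.80% of windows of tested genes. Each match is a match of letters only.

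In EB, ribosomal protein transcripts stood higher in knockout than in wild type across both subunits. Of the 85 members, 70 were called higher in KO EB and 0 were called lower (limma, Benjamini-Hochberg adjusted p below 0.05). Among all tested genes, 20% were called higher and 25.9% lower. The median log2 difference over the members was 0.63, a fold of 1.54, against −0.06 over all tested genes, and 84 of the 85 differences were positive. The small subunit had 28 of 36 members called, with a median of 0.59, and the large subunit had 42 of 49, with a median of 0.63. In 82 of the 85 members both KO EB libraries lay above both WT EB libraries, as in 34.8% of all tested genes.

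**Figure D1:**
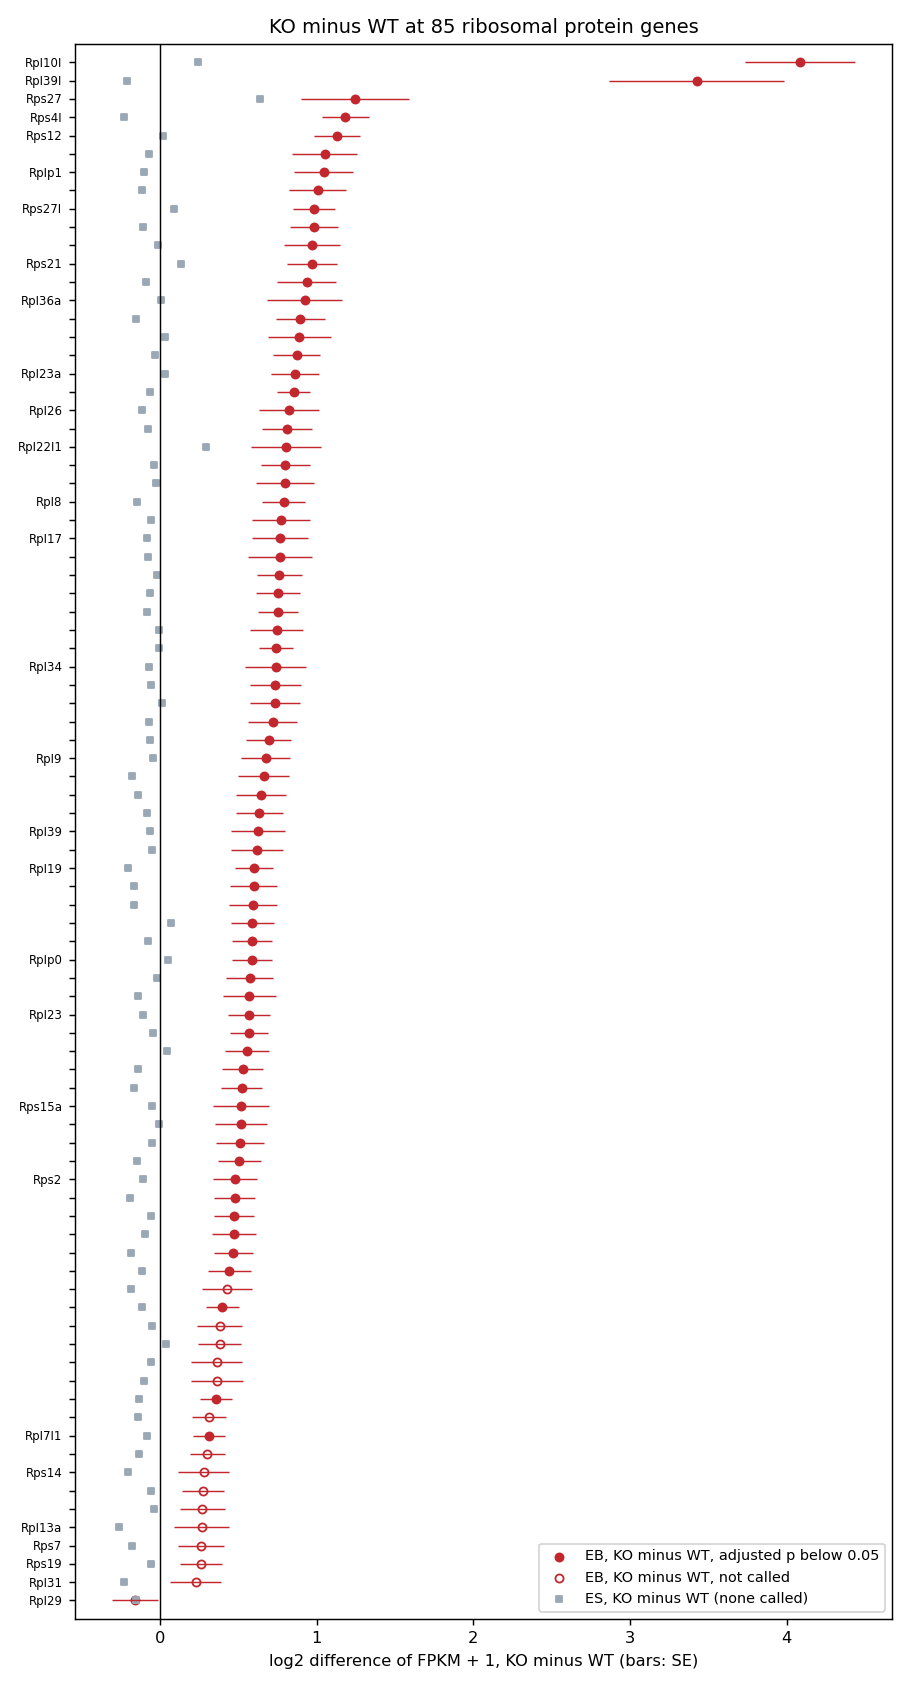
Log2 difference of FPKM + 1, KO minus WT, for each of the 85 members (1 row each, sorted by the EB value, with symbols for the genes chosen by rule). Red circles with SE bars are EB, filled where the adjusted p was below 0.05, and grey squares are ES cells, where none was called; the EB values run between 4.09 for Rpl10l and −0.16 for Rpl29, while the ES values stay between −0.26 and 0.64.

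The count rests on few libraries. Leaving libraries out also weakens the test for every gene, and the shares of all genes called in the fits below are not given here. Without KO EB library 1, which had the highest member levels of all 8, 23 members were called, and in a fit of the EB libraries alone 19 were called. In fits that left out 1 library each, 23 of the 70 members were called every time. A total of 15 were called under every one of the 17 alternative settings, which are Rpl10a, Rpl10l, Rpl12, Rpl14, Rpl22, Rpl27a, Rpl30, Rpl39l, Rpl4, Rpl6, Rpl8, Rps12, Rps27l, Rps4l and Rpsa.

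The P-stalk of the large subunit, built of Rplp0, Rplp1 and Rplp2, recruits elongation factors to the ribosome. All 3 rose in KO EB. Rplp1 had 7812 and 6644 FPKM in KO EB, against 4024 and 3034 FPKM in WT EB, and differed by 1.04 ± 0.19 on the log2 scale (± SE throughout for log2 differences; adjusted p = 0.00463). Rplp2 had 3094 and 2958 FPKM in KO EB, against 1981 and 1526 FPKM in WT EB, a log2 difference of 0.80 ± 0.16 (adjusted p = 0.0061). Rplp0, which anchors the stalk, had 1603 and 1578 FPKM in KO EB, against 1176 and 952 FPKM in WT EB, a log2 difference of 0.59 ± 0.13 (adjusted p = 0.00952). The KO and WT libraries did not overlap for any of the 3. Without KO EB library 1 the adjusted p of Rplp0 was 0.056, and under quantile normalization the calls of Rplp0 and Rplp1 were lost (adjusted p = 0.131 and 0.157, limma).

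Rpl5 and Rpl11 form the 5S particle with 5S rRNA and, when ribosome assembly fails, bind Mdm2 and stabilise p53. Rpl5 had 1401 and 1242 FPKM in KO EB, against 1018 and 830 FPKM in WT EB. Rpl11 had 1957 and 1888 FPKM in KO EB, against 1471 and 1450 FPKM in WT EB. Both rose, by 0.52 ± 0.13 and 0.40 ± 0.10 on the log2 scale (adjusted p = 0.0163 and 0.0196, limma). Neither call held without KO EB library 1, where the adjusted p-values were 0.102 and 0.0987. Without WT EB library 2 the adjusted p of Rpl5 was 0.0582, and under quantile normalization it was 0.106. That of Rpl11 was 0.0593 without KO EB library 2 and 0.117 with equal FPKM totals, and its difference turned negative under quantile normalization.

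Among the single members with known roles, Rpsa, the small-subunit protein also known as the laminin receptor precursor, had 1668 and 1637 FPKM in KO EB, against 1081 and 889 FPKM in WT EB. Rps6, which S6 kinases phosphorylate downstream of mTORC1, had 2246 and 2075 FPKM in KO EB, against 1502 and 1185 FPKM in WT EB. Rps27a, made as a fusion to ubiquitin, had 2519 and 2225 FPKM in KO EB, against 1644 and 1257 FPKM in WT EB. All 3 rose without overlap between KO and WT libraries. Their log2 differences were 0.75 ± 0.12 for Rpsa, 0.69 ± 0.14 for Rps6 and 0.72 ± 0.16 for Rps27a (adjusted p = 0.00339, 0.00763 and 0.00898, limma). Without KO EB library 1 the adjusted p was 0.0539 for Rps6 and 0.0634 for Rps27a, past the threshold for both, and under quantile normalization it was 0.22 and 0.131. Rpl38, whose loss in mice alters the axial skeleton, rose by 0.63 ± 0.15 (adjusted p = 0.0128), a call lost without KO EB library 1 (adjusted p = 0.0804) and under quantile normalization (0.637). Rpl41, the shortest ribosomal protein, had a log2 difference of 0.38 ± 0.14 (adjusted p = 0.0562), and Rpl10, which joins the large subunit late in its assembly, one of 0.36 ± 0.16 (adjusted p = 0.109).

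The largest differences in KO EB were those of Rpl10l, Rpl39l, Rps27, Rps4l and Rps12. Rps12, a protein of the head of the small subunit, had 4579 and 3970 FPKM in KO EB, against 2119 and 1795 FPKM in WT EB, and rose by 1.13 ± 0.15 on the log2 scale (adjusted p = 0.00152). Rps27, a zinc-finger protein of the small subunit, had 17897 and 11595 FPKM in KO EB, against 8460 and 4357 FPKM in WT EB. Its libraries did not overlap between genotypes, but its replicates spread more widely than those of Rps12. The rise of 1.25 ± 0.35 (adjusted p = 0.0231) was lost without KO EB library 1 (adjusted p = 0.139) and without WT EB library 2 (adjusted p = 0.0885).

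At the other end, Rpl29, which mice can live without, had 320 and 356 FPKM in KO EB, against 334 and 427 FPKM in WT EB, and was the 1 member with a negative difference (−0.16 ± 0.15, adjusted p = 0.403). Its libraries overlapped. Rps19, the gene most often mutated in human Diamond-Blackfan anaemia, had 2598 and 2430 FPKM in KO EB, against 2283 and 1929 FPKM in WT EB (0.26 ± 0.13, adjusted p = 0.153). Rpl31, Rps7 and Rpl13a had log2 differences of 0.23, 0.26 and 0.27, and none passed the test (adjusted p = 0.29, 0.193 and 0.257, limma). Rps3a1 and the pseudogenes Rps3a2 and Rps3a3 are near-identical, so reads could be divided between them in any way and their separate values are uncertain. The 244 pseudogene models named after ribosomal protein genes share sequence with many members. Of the 132 that were tested, 29 were called higher in KO EB and 0 lower, where 20% and 25.9% of all tested genes were called. Their median log2 difference was 0.28, against −0.06 over all tested genes, and 97 of the 132 differences were positive.

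**Figure D2:**
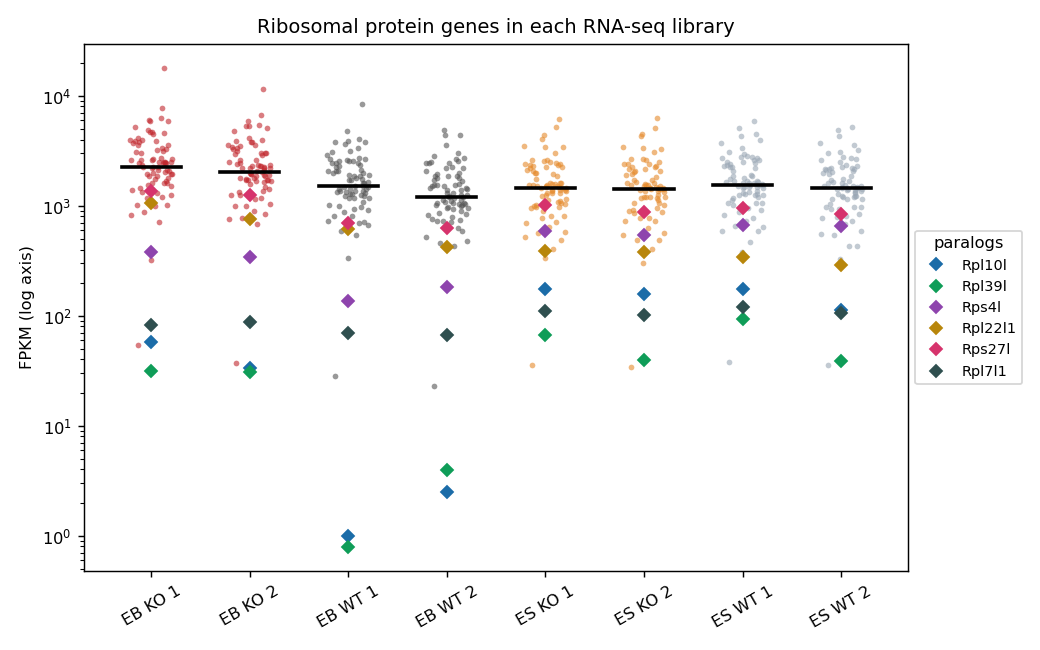
FPKM (log axis) of the 85 members in each of the 8 libraries, 1 point per gene, with black lines at the library median and diamonds for the 6 paralogs. The medians of the KO EB libraries, 2264 and 2026 FPKM, lie above those of the other 6, and Rpl10l and Rpl39l drop below 4 FPKM in WT EB.

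The share of all FPKM that the members took was 28.2 ± 1.67% in KO EB and 20.5 ± 2.27% in WT EB (SD, n = 2 each). It was 19.3 ± 0.0496% in KO ES cells and 19.8 ± 0.725% in WT ES cells (SD, n = 2 each). Both KO EB libraries, at 29.4% and 26.99%, exceeded the other 6, which ran between 18.9% and 22.1%. Scalings that equalise the libraries gave smaller differences. With each library scaled to the same FPKM total the median log2 difference in EB was 0.42 and that of all genes −0.24, and under quantile normalization the median was 0.20 and 26 members were called.

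Replicates moved as a block. Replicate 1 was above replicate 2 in 80 of 85 members in KO EB, 79 in WT EB, 54 in KO ES cells and 78 in WT ES cells, with median log2 gaps of 0.15, 0.30, 0.03 and 0.12. Median member levels were 2264 and 2026 FPKM in KO EB, 1496 and 1204 FPKM in WT EB, 1445 and 1433 FPKM in KO ES cells and 1554 and 1436 FPKM in WT ES cells. The gap between genotypes in EB was thus wider than the gap between replicates of either group.

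Differentiation markers moved with the same comparison. Pluripotency markers, summed over 20 genes, stood at 8662 and 6233 FPKM in KO EB, against 435 and 684 FPKM in WT EB, with 7585 and 7336 FPKM in KO ES cells and 8167 and 7789 FPKM in WT ES cells. All 20 were called higher in KO EB than in WT EB. In the same comparison 20% of all tested genes were called higher and 25.9% lower. Summed cardiomyocyte markers were at 36.6 and 340 FPKM in KO EB, against 5360 and 4221 FPKM in WT EB, and 12 of 12 were called lower. Blood and endothelium markers were at 85.8 and 117 FPKM in KO EB, against 2841 and 755 FPKM in WT EB, with 11 of 13 called lower. Fibroblast markers were at 74.2 and 152 FPKM in KO EB, against 962 and 1184 FPKM in WT EB, with 10 of 12 called lower and 1 higher. Of all these markers only Nppa, an atrial peptide gene, was listed at 0 in both KO EB libraries. The part of these cell types in the ribosomal protein difference was not tested. In bulk RNA, fewer cells of a type and less RNA per cell cannot be told apart.

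In ES cells no ribosomal protein gene passed the test between genotypes. The counts were 0 higher and 0 lower of 85, against a background of 0.421% of all genes called higher and 0.0778% called lower, and 0 members had an unadjusted p below 0.05. The median log2 difference was −0.07 for the members and 0.02 for all genes. The largest was that of Rps27, at 6171 and 6281 FPKM in KO ES cells, against 4446 and 3595 FPKM in WT ES cells, a log2 difference of 0.64 ± 0.35 (adjusted p = 0.485). Its KO libraries were above its WT libraries. Next came Rpl22l1 at 0.29, Rpl10l at 0.24 and Rps21 at 0.13 (adjusted p = 0.649, 0.853 and 0.8, limma). The lowest were Rpl13a at −0.26, Rps4l at −0.23 and Rpl31 at −0.23 (adjusted p = 0.593, 0.569 and 0.619, limma). Both KO ES libraries were above both WT ES libraries for 5 members and below for 37, against 25.6% and 18.5% of all tested genes. A p that misses the threshold with 2 libraries a group does not show that the levels were equal.

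The effect of the knockout was larger in EB than in ES cells. The difference of the 2 effects was called positive for 46 of 85 members and negative for 0, where 12.7% of all genes were called positive and 18.6% negative. Its median was 0.71 over the members and −0.10 over all genes, and 84 members had a positive value. Of the stalk proteins, Rplp1 had a value of 1.15 ± 0.27 (adjusted p = 0.0193) and Rplp2 of 0.84 ± 0.22 (adjusted p = 0.0281), while Rplp0 at 0.54 ± 0.18 was not called (adjusted p = 0.0619). For Rpl22, a large-subunit protein that lymphocyte development in mice depends on, the value was 1.09 ± 0.22 (adjusted p = 0.012). By subunit, 14 of 36 small and 32 of 49 large members were called. Without KO EB library 1 those of Rplp1 and Rplp2 had adjusted p-values of 0.0701 and 0.0901, and under quantile normalization of 0.288 and 0.218. The count fell to 7 without KO EB library 1 or WT ES library 1, and Rpl10l, Rpl22, Rpl27a, Rps12 and Rps4l were the 5 called in every leave-one-out fit. This contrast uses all 4 groups and so shares libraries with each of the others.

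In knockout cells, most ribosomal protein genes were higher in EB than in ES cells. The counts were 56 higher and 2 lower of 85, where all genes gave 17.1% higher and 12% lower, with medians of 0.61 and 0.07 on the log2 scale. Of the 76 standard members, 52 rose and 0 fell. Rpl39, a short protein at the exit tunnel of the large subunit, had 2060 and 1722 FPKM in KO EB, against 814 and 869 FPKM in KO ES cells, a log2 difference of 1.16 ± 0.17 (adjusted p = 0.00494). Rpl22l1 rose by 1.21 ± 0.22 (adjusted p = 0.00914), and Rpl34, a large-subunit protein, by 1.15 (adjusted p = 0.00728). The 2 that fell were the paralogs Rpl10l, by 1.90 ± 0.35 (adjusted p = 0.0095), and Rps4l, by 0.65 ± 0.15 (adjusted p = 0.019). The call of Rpl10l was lost without KO EB library 2 (adjusted p = 0.0521) or KO ES library 1 (0.0502), and that of Rps4l also without KO ES library 2 (0.0507). Both KO EB libraries exceeded both KO ES libraries for 80 members and lay below for 4, against 38.1% and 29.1% of all tested genes. Without KO ES library 1 the count of called members was 17, and without KO EB library 1 it was 19.

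In wild-type cells the same step gave no common rise. Of 85 members 1 was called higher and 18 lower in EB than in ES cells, where all genes gave 36.1% higher and 24.8% lower, and the medians were −0.10 for members and 0.12 for all genes. With equal FPKM totals the counts were 12 higher and 16 lower, and under quantile normalization 18 higher and 15 lower. The sign of the members' median also turned with the scaling, to 0.02 with equal FPKM totals and to 0.05 under quantile normalization, and it was 0.06 without WT EB library 2. Rplp1 had 4024 and 3034 FPKM in WT EB, against 5884 and 5170 FPKM in WT ES cells, and fell by 0.66 ± 0.19 (adjusted p = 0.0191). That call was lost without WT EB library 2 (adjusted p = 0.0556), WT ES library 1 (0.12) or WT ES library 2 (0.0562). Among the 76 standard members 13 fell and 0 rose. Both WT EB libraries exceeded both WT ES libraries for 11 members and lay below for 27, against 45.9% and 35.4% of all tested genes. Without WT ES library 1, 5 members were called in all. The EB libraries of each genotype serve both in this kind of contrast and in the genotype contrast, so the 2 sets of values are not independent.

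The paralogs Rpl10l and Rpl39l had the widest differences of all members in KO EB over WT EB. Rpl10l, an autosomal retrogene of X-linked Rpl10 that takes over in mouse spermatocytes, had 57.5 and 33.6 FPKM in KO EB, against 0.993 and 2.52 FPKM in WT EB, and 175 and 159 FPKM in KO ES cells, against 175 and 114 FPKM in WT ES cells. Its level in WT EB was thus far under that of the other 3 groups, with no overlap. It rose by 4.09 ± 0.35 on the log2 scale in KO EB over WT EB (adjusted p = 0.00044), and fell by 5.75 ± 0.35 in WT EB relative to WT ES cells (adjusted p = 4.19e-05). In FPKM it amounted to 2.63% and 1.69% of Rpl10 in KO EB, 0.0525% and 0.181% in WT EB, 11.7% and 10.1% in KO ES cells and 10.9% and 7.06% in WT ES cells.

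Rpl39l, the testis-enriched relative of Rpl39, had 31.7 and 30.5 FPKM in KO EB, against 0.789 and 3.99 FPKM in WT EB, and 67.3 and 39.5 FPKM in KO ES cells, against 92.6 and 38.7 FPKM in WT ES cells. Here too WT EB lay apart, while the ES groups overlapped and replicates differed widely. The rise in KO EB over WT EB was 3.43 ± 0.56 (adjusted p = 0.00323), and in wild type it fell by 4.35 ± 0.56 from the ES level (adjusted p = 0.000503). Its partner Rpl39 went the other way in differentiation, with 1429 and 1042 FPKM in WT EB, against 920 and 843 FPKM in WT ES cells (0.47 ± 0.17, adjusted p = 0.0505), a difference that missed the threshold.

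Rps4l, typed by RefSeq as a transcribed pseudogene of the Rps4x family, had 380 and 338 FPKM in KO EB, against 136 and 182 FPKM in WT EB, and 592 and 538 FPKM in KO ES cells, against 670 and 656 FPKM in WT ES cells. The groups did not overlap. It rose by 1.18 ± 0.15 in KO EB over WT EB (adjusted p = 0.00137) and fell by 2.07 ± 0.15 in WT EB relative to WT ES cells (adjusted p = 5.9e-05). Rps4x itself had 2018 and 1916 FPKM in KO EB, against 1496 and 1128 FPKM in WT EB, and 1107 and 1135 FPKM in KO ES cells, against 1290 and 1231 FPKM in WT ES cells. Its rise in KO EB was 0.60 ± 0.15 (adjusted p = 0.016), lost without KO EB library 1 (0.0874) or library 2 (0.0507). Reads of such copies may be shared with the parent gene, so their levels are uncertain.

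Rpl22l1, which Rpl22 holds down in mice, had 1061 and 754 FPKM in KO EB, against 620 and 424 FPKM in WT EB, and 392 and 380 FPKM in KO ES cells, against 340 and 291 FPKM in WT ES cells. It was the 1 member called higher in WT EB than in WT ES cells, by 0.70 ± 0.22 (adjusted p = 0.0282), a call lost without WT EB library 1 (0.151), WT ES library 1 (0.0554) or WT ES library 2 (0.134). In KO EB over WT EB it rose by 0.80 ± 0.22 (adjusted p = 0.0231), lost without KO EB library 1 (0.139) or WT EB library 2 (0.118). Rpl22 had 2521 and 2026 FPKM in KO EB, against 1260 and 1037 FPKM in WT EB, and rose by 0.98 ± 0.16 (adjusted p = 0.00284). Both members of the pair were therefore higher in KO EB, with Rpl22l1 at 42.1% and 37.2% of Rpl22 in KO EB and 49.2% and 40.9% in WT EB.

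Rps27l, a p53-responsive relative of Rps27, had 1368 and 1242 FPKM in KO EB, against 696 and 623 FPKM in WT EB, and 1025 and 877 FPKM in KO ES cells, against 945 and 839 FPKM in WT ES cells. The EB groups were apart and the ES groups overlapped. It rose by 0.98 ± 0.13 in KO EB over WT EB (adjusted p = 0.00168) and fell by 0.43 ± 0.13 in WT EB relative to WT ES cells (adjusted p = 0.0246), the second lost without WT EB library 2 (0.0938) or WT ES library 1 (0.141). Rpl7l1, related to a yeast pre-ribosome factor, had 82.0 and 87.1 FPKM in KO EB, against 69.5 and 66.3 FPKM in WT EB. Its rise of 0.31 ± 0.10 was near the threshold (adjusted p = 0.0455) and was lost without any 1 of the 4 EB libraries, with adjusted p-values between 0.0928 and 0.167, and without either KO ES library (0.0543 and 0.0541). In WT EB it fell by 0.73 ± 0.10 relative to WT ES cells (adjusted p = 0.000848).

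**Figure D3:**
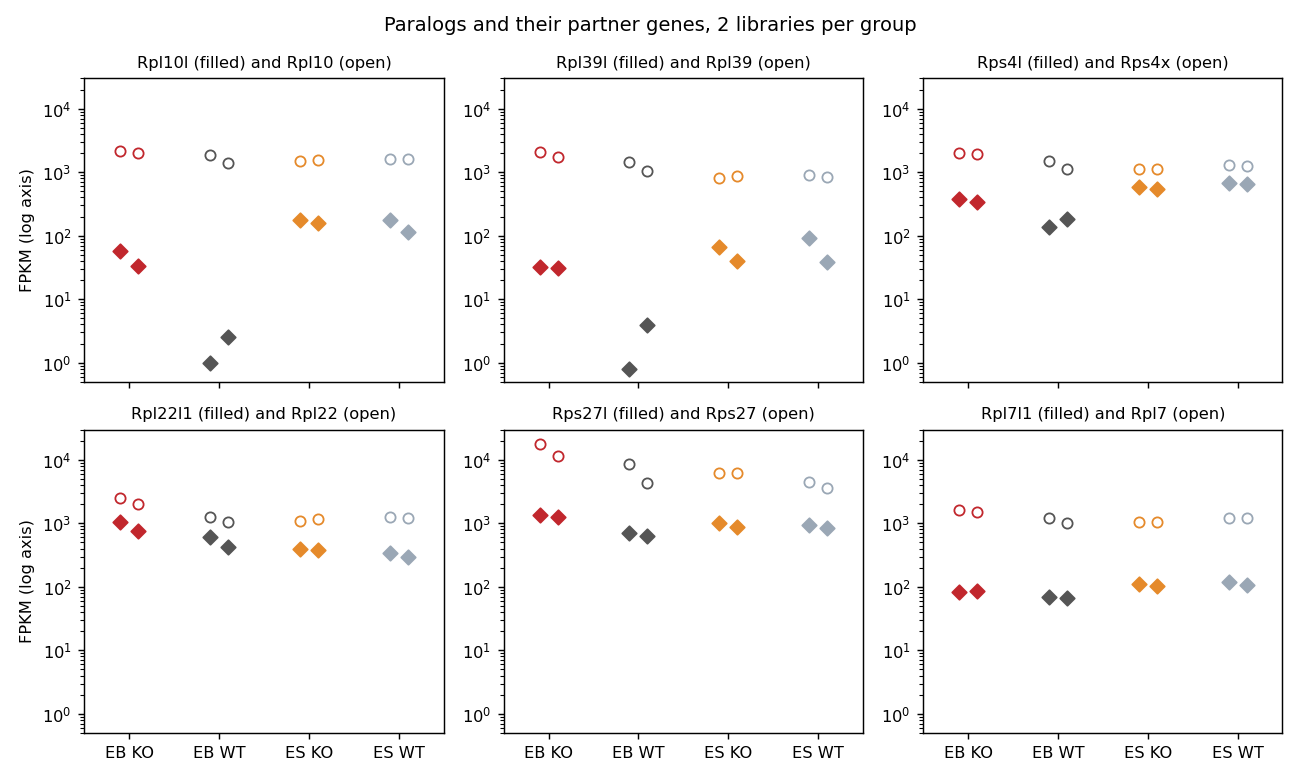
FPKM on a log axis of the 6 paralogs and their standard partners in each library, with groups ordered KO EB, WT EB, KO ES, WT ES. Rpl10l and Rpl39l drop to between 0.789 and 3.99 FPKM in WT EB, while their partners Rpl10 and Rpl39 stay above 1000 FPKM there.

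To see which members departed from the common shift, each library's median over the members was taken away and the same fit was run. In KO EB against WT EB, 12 members were then called higher and 14 lower than the rest, where 5.41% of all genes were called higher and 57% lower on this scale. Among those of smallest adjusted p, besides the paralogs, Rps12 stood above the others by 0.45 (adjusted p = 0.00193), Rplp1 by 0.37 (adjusted p = 0.00473) and Rps21 by 0.30 (adjusted p = 0.0123). Rpl29 stood at −0.83 (adjusted p = 0.00745), Rpl31 at −0.45 (adjusted p = 0.00305), Rps19 at −0.41 (adjusted p = 0.00322), Rps7 at −0.41 (adjusted p = 0.00447) and Rps14 at −0.39 (adjusted p = 0.00445), all by limma. The members therefore did not all rise by the same factor. Without KO EB library 1, 9 departures were called, and without WT EB library 2, 16.

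On the same scale, KO EB against KO ES cells gave 19 members higher and 10 lower, with 4.32% and 37.9% of all genes. Of the 19 higher ones 13 belong to the large and 6 to the small subunit. Over all members, called or not, the largest values were 0.64 for Rpl22l1, 0.64 for Rps27 and 0.61 for Rpl36a. The KO EB replicates of Rps27 spread widely. The called members of smallest adjusted p were Rpl39 at 0.59, Rpl34 at 0.57, Rpl26 at 0.53, Rpl17 at 0.51 and Rpl23a at 0.50. The lower ones included Rplp0 at −0.48 and Rps2 at −0.46, besides the paralogs. WT EB against WT ES cells gave 24 higher and 15 lower, with 37.2% and 17.5% of all genes, and the largest value was that of Rpl22l1 at 0.86. The others of smallest adjusted p were Rpl39 at 0.62, Rpl23 at 0.47, Rpl23a at 0.40 and Rpl9 at 0.40 above, and Rplp1 at −0.50 and Rpl8 at −0.41 below, besides paralogs. KO ES cells against WT ES cells gave 0 higher and 0 lower, with 0.389% and 0.0519% of all genes and 3 members at an unadjusted p below 0.05. Departures from the common shift between ES cells and EB were thus called in both genotypes. In wild-type cells the shares of members called higher and lower were near or under those of all genes. In knockout cells only the share called higher was above that of all genes. Whether the departures were the same in the genotypes was not tested.

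Members with and without a pyrimidine run near the RefSeq start were both higher in KO EB than in WT EB. Of all tested genes, 20% were called higher and 25.9% lower in this comparison. Of 34 members with a run, 30 were called higher, with a median log2 difference of 0.74, and of 27 without one, 21 were called, with a median of 0.57. The range was 0.23 to 3.43 with a run and 0.26 to 4.09 without. Splitting the members by mean level gave medians of 0.63, 0.63, 0.60 and 0.74 in 4 groups from the lowest to the highest level, with 19 of 22, 19 of 21, 16 of 21 and 16 of 21 called.

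Genes that make ribosomes were also higher in KO EB than in WT EB. Of 65 ribosome biogenesis factors, which process rRNA and assemble the subunits in the nucleolus, 56 were called higher and 0 lower, with a median log2 difference of 0.84, where 20% and 25.9% of all genes were called. Nat10, an rRNA acetyltransferase, had 30.1 and 32.6 FPKM in KO EB, against 10.0 and 11.3 FPKM in WT EB (1.48 ± 0.11, adjusted p = 0.000323). Ncl, the nucleolar protein nucleolin, had 751 and 696 FPKM in KO EB, against 295 and 296 FPKM in WT EB (1.29 ± 0.10, adjusted p = 0.000369). In WT EB relative to WT ES cells 64 of the 65 fell, with a median of −1.30, where 24.8% of all genes fell. In KO EB relative to KO ES cells 0 rose and 29 fell, where 17.1% and 12% of all genes did. Whether this list differs from the ribosomal protein genes was not tested. Of 15 genes of RNA polymerase I transcription 7 rose in KO EB, among them its initiation factor Rrn3 by 1.31 ± 0.12 (adjusted p = 0.000528) and its subunit Polr1b by 1.18 ± 0.12 (adjusted p = 0.00073). Of 11 small nucleolar RNA host genes tested 7 rose and 0 fell, including Snhg4 by 1.43 ± 0.21 (adjusted p = 0.00223) and Snhg5 by 1.32 ± 0.21 (adjusted p = 0.0027). Pluripotency markers moved in the same direction as these lists, at the levels given above, and their part was not tested.

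Of 20 other TOP-motif genes of translation, 10 were called higher in KO EB and 0 lower, with a median of 0.38, where 20% and 25.9% of all genes were called. Eef1b2, an elongation factor subunit, rose by 0.99 ± 0.18 (adjusted p = 0.00509), Pabpc1, the cytoplasmic poly(A)-binding protein, by 0.90 ± 0.14 (adjusted p = 0.00259), and Gnb2l1, the ribosome-bound scaffold RACK1, by 0.70 ± 0.15 (adjusted p = 0.00905). The 23 genes listed for the Myc and mTORC1 axis did not move one way, with 7 higher and 5 lower and a median of −0.09, against the same shares of all genes. Among them Larp1, which binds TOP mRNAs, had 67.8 and 68.0 FPKM in KO EB, against 46.3 and 42.3 FPKM in WT EB (0.61 ± 0.09, adjusted p = 0.00225), and Eif4ebp1, a translation inhibitor that mTORC1 switches off, rose by 1.01 ± 0.14 (adjusted p = 0.00192). Deptor, an mTOR-binding inhibitor, rose by 1.96 ± 0.18 (adjusted p = 0.000493), and Mxd4, a Max-binding repressor, fell by 2.03 ± 0.27 (adjusted p = 0.00169). Myc itself had 12.6 and 17.9 FPKM in KO EB, against 15.2 and 17.0 FPKM in WT EB, with overlapping libraries (adjusted p = 0.763).

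Of 9 genes listed as sensors of ribosomal stress, the response to failed ribosome assembly, 6 were called higher in KO EB and 0 lower. Their median was 0.66, and 20% and 25.9% of all genes were called higher and lower. The list is wider than the genes around p53 and Mdm2. It also holds Nol11, which rose by 0.68 ± 0.14 (adjusted p = 0.00695, limma). Trp53, which encodes p53, rose by 0.64 ± 0.13 (adjusted p = 0.00648), Mdm2, its ubiquitin ligase, by 0.66 ± 0.16 (adjusted p = 0.0131), and Pml, a nuclear body protein, by 1.78 ± 0.12 (adjusted p = 0.000252). In WT EB relative to WT ES cells 2 of the 9 were called higher and 4 lower, where 36.1% and 24.8% of all genes were. Trp53 had a log2 difference of −1.37 there and Pml of −2.08. In KO EB relative to KO ES cells 1 was called higher and 2 lower, with Trp53 at −0.50, where 17.1% and 12% of all genes were called. Cdkn1a, the p53 target p21, had 70.0 and 81.0 FPKM in KO EB, against 72.0 and 92.2 FPKM in WT EB, which overlapped (adjusted p = 0.596). In ES cells it was the 1 gene of this list called, with 51.6 and 47.4 FPKM in KO ES cells, against 22.6 and 18.6 FPKM in WT ES cells, a rise of 1.23 on the log2 scale (adjusted p = 0.0353).

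**Figure D4:**
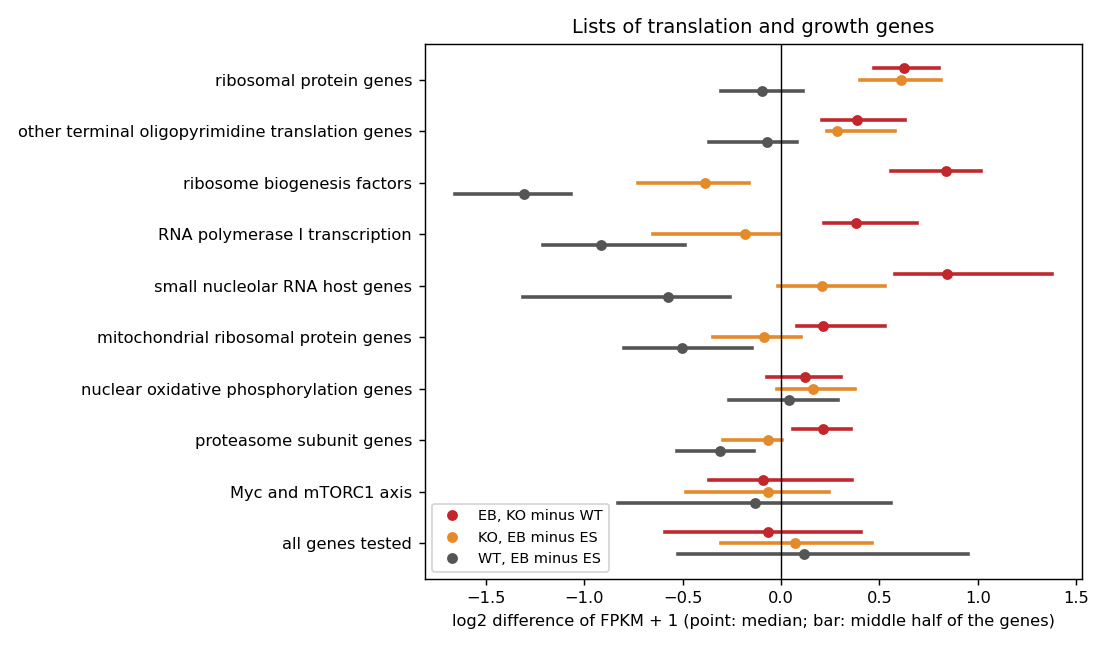
Log2 difference of FPKM + 1 for 9 gene lists and all genes tested, in KO EB minus WT EB, KO EB minus KO ES and WT EB minus WT ES; points are medians and bars span the 25th to 75th percentile of the genes. Ribosome biogenesis factors stand at 0.84 for KO EB minus WT EB and at −1.30 for WT EB minus WT ES, while the 85 ribosomal protein genes stand at 0.63 and −0.10.

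Ribosomal protein promoters carried H3K4me3, the mark of active promoters, and almost no H3K27me3, the Polycomb mark, in all 4 groups. The deposited promoter values list 80 of the 85 members. Median H3K4me3 signal over the members was 23.7 in KO EB, 22.3 in WT EB, 25.6 in KO ES cells and 22.4 in WT ES cells, against 10.0, 10.97, 9.31 and 8.94 over all 20462 genes listed and 2.96, 1.76, 2.40 and 2.51 over genes with loci under 10 kb. Median H3K27me3 signal over the members was 0.147 in KO EB, 0.160 in WT EB, 0.0534 in KO ES cells and 0.0800 in WT ES cells, against 1.79, 1.56, 1.63 and 1.65 over all genes and 0.427, 0.40, 0.347 and 0.374 over genes with loci under 10 kb, and 0 members were above the median of all genes in any group. These values rise with locus length, so the medians over short loci are the closer comparison, and 1 library a group allows no test.

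The median log2 ratio of H3K4me3 at the members was 0.06 for KO EB over WT EB and 0.21 for KO ES over WT ES, against −0.08 and 0.02 over all genes. With each library scaled to its total, the EB ratio was 0.17 at the members and 0.0042 over all genes. These ratios were smaller than the members' median RNA difference of 0.63 in EB, but the 2 assays are on different scales. Rpl10l was unlike the rest, with an H3K4me3 signal of 3.28 in KO EB, against 0.347 in WT EB, and 6.30 in KO ES cells, against 2.69 in WT ES cells. Rpl39l had 2.43 in KO EB, against 0.800 in WT EB, and 3.04 in KO ES cells, against 2.24 in WT ES cells. For both paralogs the WT EB library had the lowest H3K4me3 of the 4, as it did for their RNA. Rpl13a was listed at 0.004 for both marks in every library, although its RNA level was between 3637 and 5287 FPKM.

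**Figure D5:**
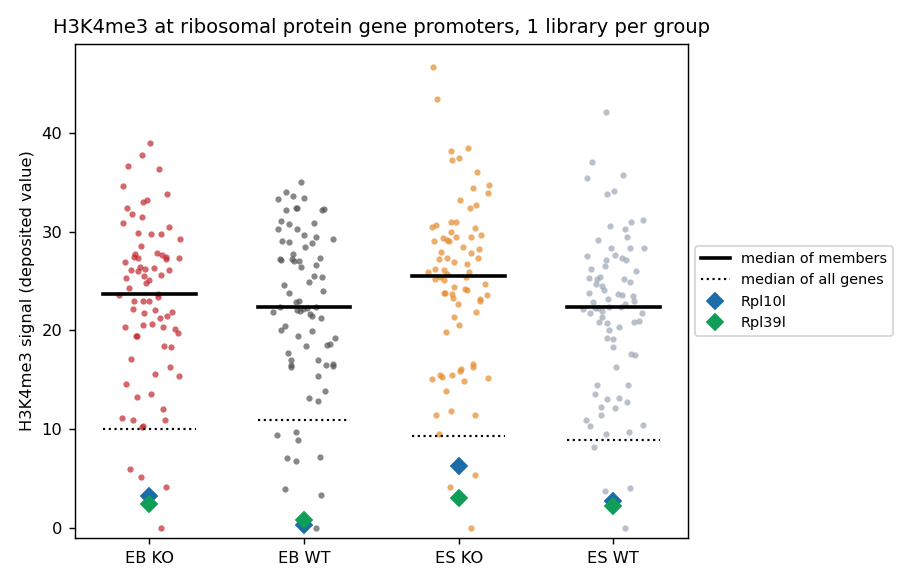
Deposited H3K4me3 promoter signal of 80 members in 1 library per group, 1 point per gene, with solid lines at the members' median, dotted lines at the median of all genes and diamonds for Rpl10l and Rpl39l. Member medians lie between 22.3 and 25.6, and Rpl10l runs between 0.347 in WT EB and 6.30 in KO ES cells.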

How the data were processed

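Gene-level FPKM of 8 libraries were used as deposited. Per the submitters' processing notes the authors used mm10, STAR 2.6.0a, Bowtie2, HTSeq, Cufflinks 2.2.1 and DESeq2, with no role or order given. Of 53560 rows, 120 second entries of a symbol were left out, keeping the one of highest mean. Genes with at least 1 FPKM in 2 or more libraries (15428) were tested on log2(FPKM + 1). The fit (limma 3.58.1, R 4.3.3) gave each group its own mean, used trended variances and had 4 residual degrees of freedom. The pseudocount understates differences of low genes. Adjusted p-values are Benjamini-Hochberg over all genes tested, called below 0.05. Each group has 2 libraries. Every column used was mapped to a sample, with 0 left unmapped. The ChIP promoter signal is as deposited; the authors' name for it is RPKM, but it rises with locus length (Spearman between 0.43 and 0.69), so it is treated as signal, and log2 ratios use a pseudocount of 0.1. RefSeq windows are those of GRCm38.p6.

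The members, the gene lists and the tests were chosen with earlier results of these data known. The genes named are Chaf1a, the paralogs with their partners, 12 members of known role, the 5 highest and 5 lowest members per comparison, the 5 strongest departures from the members' median in each direction, up to 4 called genes of each other list, and any 5 or fewer members against the majority. Myc and Fau were named outside this rule, after their values were seen. So were the members called under every alternative setting or in every leave-one-out fit, which were picked by their results. Rps3a1, the members typed as pseudogenes and the symbol left out for its level were named as well. Some genes are counted but not reported by name here.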

Additional observations from a re-analysis of the deposited data

Results flagged for a closer look

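The knockout effect differed between EB and ES cells by a test of the difference itself (an interaction term in limma) for 46 of the 85 ribosomal protein genes, all with a larger effect in EB. Among the genes named here the log2 difference of effects was 3.84 for Rpl10l, 3.64 for Rpl39l, 1.42 for Rps4l and 0.89 for Rps27l among the paralogs. Among their standard partners it was 1.09 for Rpl22, 0.78 for Rpl3, 0.77 for Rps4x and 0.66 for Rpl7. For the stalk it was 1.15 for Rplp1 and 0.84 for Rplp2. For the other members of known role it was 0.84 for Rpsa, 0.79 for Rps27a, 0.76 for Rps6, 0.71 for Rpl38, 0.69 for Rpl5 and 0.51 for Rpl11. The calls of Rpl10l, Rps4l and Rpl22 held without any single library. Those of the other genes named were lost without KO EB library 1, and all of these but Rpl39l also without WT ES library 1. All but Rpl39l, Rps27l and Rpsa were lost on leaving out any single KO ES or WT ES library. Groups of 2 libraries are too small for a test of single outlying samples.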

How the results depend on the processing

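The count of called members moved most. The shares of all genes called under each setting are not given here. These counts thus do not show whether members moved more than other genes. For KO EB minus WT EB, 70 became 40 with no filter on low values, 26 under quantile normalization and 19 with the 2 EB groups alone, and ran between 23 and 77 when 1 library was left out. For KO EB minus KO ES, 58 became 25 with no filter and 33 under quantile normalization, with a range of 17 to 69. For WT EB minus WT ES, 19 became 9 with no filter, 33 under quantile normalization (18 higher, 15 lower) and 7 with 2 groups alone, with a range of 5 to 25; the split was 12 higher and 16 lower with equal FPKM totals, and 6 and 12 with totals equal over other genes. For the difference of effects, 46 became 9 with no filter and 14 under quantile normalization, with a range of 7 to 69. Departures from the members' median ranged between 9 and 31 in the EB genotype comparison, 13 and 36 in knockout cells and 17 and 36 in wild-type cells. For KO ES minus WT ES the count was 0 under every setting run.

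The WT EB minus WT ES median of −0.10 turned to 0.016 with equal FPKM totals, 0.018 with totals equal over other genes and 0.054 under quantile normalization, and ran between −0.23 and 0.056 (without WT EB library 2) when 1 library was left out. Equal totals took the median of all genes in EB to −0.24, against −0.06. Under quantile normalization the KO EB minus WT EB difference was −0.12 for Rpl10, −0.093 for Rpl11, −0.15 for Rpl13a, −0.23 for Rpl31, −0.15 for Rpl41, −0.15 for Rps19 and −0.11 for Rps7, and the difference of effects was −0.020 for Rpl11. Rpl29 ran between −0.34 and 0.017 (without WT EB library 2) with 1 library left out, and was −0.018 in KO EB minus KO ES with equal totals. In KO ES minus WT ES, Rpl10l ran between −0.066 (without WT ES library 2) and 0.55, Rpl39l between −0.83 and 0.40 (without WT ES library 1; 0.16 without KO ES library 2), and Rps27l between −0.022 (without KO ES library 1) and 0.20. The cause of these changes was not tested.

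The share of FPKM without the 3 highest members was 24.5% in KO EB, 17.1% in KO ES and 17.9% in WT ES, and without mitochondrial genes 19.9% in KO ES. With ChIP scaled to equal totals, median H3K27me3 was 0.143, 0.150 and 0.0863 in KO EB, WT EB and WT ES, and over loci under 10 kb 0.133 and 0.12 in KO EB and WT EB. The H3K4me3 log2 ratio was 0.17 (scaled) and 0.054 (under 10 kb) for KO EB over WT EB, −0.15 for KO EB over KO ES and −0.12 for WT EB over WT ES (scaled), the last turned from 0.02.

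Replicate numbers are shared across groups, and deviations of same-numbered libraries correlated at 0.07 to 0.31 in 2 pairs per comparison. Over the members, replicate 1 also had the higher median in every group. Whether same-numbered libraries share a batch was not tested, and the labels do not say. With the replicate block the counts were 75, 0, 68, 26 and 68 for the 5 contrasts and 32, 0, 33 and 42 relative to the members' median. The depth of the libraries is unknown, so no counting error could be given.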

Other observations

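Genes of other large complexes had smaller median differences than the cytosolic ribosomal protein genes in KO EB over WT EB, where 20% of all genes were called higher and 25.9% lower. Of 77 mitochondrial ribosomal protein genes 25 were called higher and 1 lower, with a median log2 difference of 0.22, and in WT EB relative to WT ES cells 6 rose and 46 fell, where 36.1% and 24.8% of all genes did. Of 38 proteasome subunit genes tested 13 rose and 1 fell, with a median of 0.21. Of 90 nuclear oxidative phosphorylation genes tested 17 rose and 4 fell, with a median of 0.12, so the share called higher was near that of all genes. Among the 13 mitochondrially encoded genes 0 were called by limma and 2 had an unadjusted p below 0.05. Whether these lists differ from the ribosomal protein genes was not tested.

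Fau encodes a ribosomal protein as a fusion to a ubiquitin-like protein, and its symbol falls outside the rule used for the members. Fau had 2057 and 1945 FPKM in KO EB, against 1932 and 1710 FPKM in WT EB (0.14 ± 0.12, limma adjusted p = 0.389). It did not pass the test.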
